A study of Mus musculus with 9 samples.

Results

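Sparse, highly methylated regions of the Abl.1 genome were followed through a series of drug doses. Abl.1 is a clonal, immortalised B cell line from a female F1 mouse of a 129S1/SvImJ x CAST/EiJ cross. All 9 libraries come from this 1 clone, and DNA was taken on day 2. The 4 groups were cells in medium with 1% DMSO (2 libraries) and cells in medium with the drug 5-aza-dC (5-aza-2'-deoxycytidine) at 0.2 µM (2 libraries), 2 µM (3 libraries) or 10 µM (2 libraries). The drug stock was made in DMSO, and dead cells were removed on a density gradient before DNA was prepared, so each level describes the cells that were alive at collection. By the labels, replicates differ in library preparation, and no separate cultures are named, so the spread between them, and every test below, may cover technical spread only. Methylation was read by reduced representation bisulfite sequencing, which cuts DNA at CCGG, so that the covered regions lie next to such sites.

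The genome was divided into tiles of 1000 bases. A tile belonged to the set described here when it lay on an autosome (chromosomes 1 to 19), had 10 or more reads in each of the 9 libraries, had 9 or fewer CpG positions listed in any library, and had a pooled DMSO level of 80% or above. The methylation level is the share of reads at the tile's CpGs that were methylated. A fragment is counted once at each CpG it spans, so a tile's reads are not independent molecules. The rule kept 13589 tiles, out of 66788 tiles with 10 or more reads in every library, 64685 of them autosomal and 26826 of those sparse at any level. Because the DMSO level chose the tiles, the DMSO values and all differences from DMSO below are descriptions. The differences between doses were tested. The DMSO libraries enter those tests through the pooled estimate of the spread, which moves the counts of calls, as given below.

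In mammals most CpGs outside CpG islands are methylated, and the enzyme DNMT1 copies the mark to the new strand after each round of DNA replication. The drug, a nucleoside analogue of cytidine, is built into replicating DNA and traps DNMT1, so that the mark is diluted as cells divide. CpG-sparse sequence inside and between genes makes up most of the methylated genome, and dense CpG islands at promoters are usually unmethylated.

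Few of these tiles touch a transcription start. Of the 13589 tiles, 491 (3.61%) had a start within 1 kb of the tile centre, against 26.0% of all 66788 tiles. A gene overlapped 9607 of them (70.7%, against 75.4% of all tiles), and a protein-coding gene overlapped 8466. The 250 bases upstream of a RefSeq start (GRCm38.p6, the same coordinates as mm10) lay wholly within one of these tiles for 206 starts of 198 genes, 108 of them protein-coding. These 206 sequences held a median of 5 CpGs, against 17 in the 10292 that lay within other covered tiles and 6 in all 32851 of the table. The motif CCGG, which reads the same on both strands, was found in 48.1% of the 206, in 82.6% of the 10292 and in 47.1% of all. Of the 1134 CpGs in the 206 sequences, 328 were listed in at least 1 library, and 105 sequences had none listed. The sequence itself held more than 9 CpGs in 25 of the 206, so a sparse tile is one in which few CpGs were read, and some of these tiles hold more CpGs than were listed.

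Sequences are shown for 6 of the 206, to give a view of what a sparse methylated promoter looks like at either end of the response to 0.2 µM. They were chosen after the values were seen, from 13 protein-coding candidates with 20 or more reads in every library and 3 or more listed CpGs in the sequence, as the 3 with the lowest and the 3 with the highest mean level at 0.2 µM, so no test is attached to that order. Each is printed 5′ to 3′ on the gene's strand, and capitals mark the CpGs that were listed in at least 1 library. The Egfl7 sequence is chr2:26583615-26583864 on the plus strand, Prdm9 is chr17:15563332-15563581 on the minus strand, and A1cf is chr19:31868563-31868812 on the plus strand. Zscan18 is chr7:12803639-12803888 on the minus strand, Gabra5 is chr7:57510060-57510309 on the minus strand, and Msantd3 is chr4:48539696-48539945 on the plus strand.
Egfl7: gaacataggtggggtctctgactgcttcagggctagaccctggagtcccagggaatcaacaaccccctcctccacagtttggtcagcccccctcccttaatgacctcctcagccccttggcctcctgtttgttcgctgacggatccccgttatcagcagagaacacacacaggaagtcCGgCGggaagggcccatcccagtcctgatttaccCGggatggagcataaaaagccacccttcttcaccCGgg
Prdm9: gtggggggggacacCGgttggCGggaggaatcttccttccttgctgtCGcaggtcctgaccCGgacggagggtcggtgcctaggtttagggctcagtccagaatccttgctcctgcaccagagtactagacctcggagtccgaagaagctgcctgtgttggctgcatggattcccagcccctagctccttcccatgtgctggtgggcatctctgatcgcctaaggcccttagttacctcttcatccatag
A1cf: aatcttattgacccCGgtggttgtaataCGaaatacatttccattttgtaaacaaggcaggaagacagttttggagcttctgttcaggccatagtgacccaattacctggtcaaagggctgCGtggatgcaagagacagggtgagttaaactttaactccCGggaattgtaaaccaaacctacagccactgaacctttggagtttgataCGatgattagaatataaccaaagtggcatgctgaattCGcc
Zscan18: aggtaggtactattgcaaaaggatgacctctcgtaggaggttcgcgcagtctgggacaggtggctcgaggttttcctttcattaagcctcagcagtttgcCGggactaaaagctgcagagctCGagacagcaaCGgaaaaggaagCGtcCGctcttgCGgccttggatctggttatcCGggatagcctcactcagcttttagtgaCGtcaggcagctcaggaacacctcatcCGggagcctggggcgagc
Gabra5: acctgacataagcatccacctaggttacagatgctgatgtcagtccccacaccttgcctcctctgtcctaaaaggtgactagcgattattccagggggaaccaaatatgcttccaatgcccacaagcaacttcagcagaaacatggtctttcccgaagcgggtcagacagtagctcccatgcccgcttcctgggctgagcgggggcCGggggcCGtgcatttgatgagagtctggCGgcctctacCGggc
Msantd3: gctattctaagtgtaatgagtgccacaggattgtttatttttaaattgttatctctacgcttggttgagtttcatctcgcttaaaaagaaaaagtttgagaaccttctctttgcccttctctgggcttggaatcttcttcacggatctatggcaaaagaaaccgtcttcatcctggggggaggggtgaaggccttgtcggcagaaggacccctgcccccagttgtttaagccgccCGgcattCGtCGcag

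All 6 CpGs of the A1cf sequence were listed, against 4 of 7 in Egfl7, 4 of 9 in Prdm9, 9 of 14 in Zscan18, 4 of 9 in Gabra5 and 3 of 9 in Msantd3. Each sequence holds 1 to 3 CCGG sites. Egfl7, which encodes a secreted factor of endothelium, read 73.9 and 93.8% in DMSO and, by rising dose, 15.8 and 12.1%, then 85.7, 36.7 and 33.3%, then 71.9 and 58.3% over its tile. Prdm9, the histone methyltransferase that places meiotic recombination hotspots, read 9.80 and 22.0% in the libraries of the lowest dose, 45.2, 24.2 and 32.6% in those of 2 µM, 76.5 and 67.7% in those of 10 µM and 88.9 and 93.8% in the DMSO controls. A1cf, a cofactor of the APOBEC1 RNA editing enzyme, had means of 93.4% ± 3.91 (SD, n = 2) in DMSO, 23.9% ± 7.18 (n = 2) after 0.2 µM, 46.0% ± 6.81 (n = 3) after 2 µM and 66.1% ± 0.737 (n = 2) after 10 µM. In all 3 the 10 µM libraries lay above both 0.2 µM libraries. Zscan18, a zinc finger gene, read 45.3 and 71.1% at the lowest dose, 40, 44.4 and 50.5% at the middle dose and 66.3 and 77.9% at the highest, with 92.8 and 100% in DMSO. Gabra5, a subunit of a receptor for the inhibitory transmitter GABA, read 53.6 and 63.3% at 0.2 µM, 46.5, 43.1 and 13.9% in the 2 µM group and 46.2 and 76.5% in the 10 µM group. Msantd3 read 52.0 and 79.4% after 0.2 µM, 45.5, 53.2 and 66.7% after 2 µM, and 60.5 and 46.2% after 10 µM. The 0.2 µM and 10 µM libraries overlapped in all 3 of these. The sequences were chosen by their level at 0.2 µM, which pushes towards this split, so nothing is read from it.

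All 3 doses left the tiles below DMSO, and the lowest dose left them lowest. The mean level over the 13589 tiles was 91.7% ± 0.0931 (SD, n = 2) in DMSO, 32.8% ± 0.286 (n = 2) at the lowest dose, 48.8% ± 0.580 (n = 3) at the middle dose and 67.4% ± 0.351 (n = 2) at the highest. By library, DMSO read 91.7 and 91.8%, 0.2 µM read 32.6 and 33.0%, 2 µM read 48.2, 48.7 and 49.4%, and 10 µM read 67.1 and 67.6%. The groups did not overlap, and the gaps between them were many times the spread within them. No p-value is given for a mean over tiles that were chosen with results known. Choosing on a DMSO level raises that level: when the tiles were chosen on DMSO replicate 1 alone (13521 tiles), replicate 2 read 90.4%, and when they were chosen on replicate 2 (13856 tiles), replicate 1 read 89.7%. Against the DMSO library that took no part in the choice, the tiles kept 36.1% of the level at 0.2 µM with either choice, 53.9% at 2 µM, and 74.3 or 74.5% at 10 µM.

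**Figure D1:**
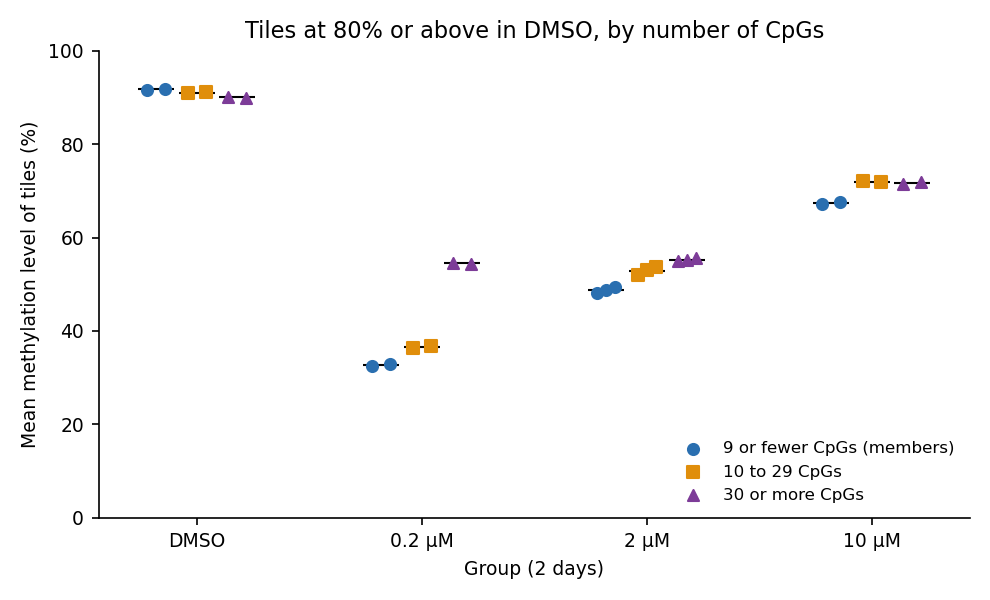
Mean methylation level (%, y axis) of tiles at 80% or above in DMSO, by group (x axis), with 1 point per library and 1 marker for each class of CpG number. The sparse tiles sit near 91.7% in DMSO, 32.8% at 0.2 µM, 48.8% in the 2 µM group and 67.4% in the 10 µM group, and tiles with 30 or more CpGs lie above them at 0.2 µM.

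The classes of methylated tiles with 10 or more CpGs held more of their level at the lowest dose than the sparse tiles. The 9859 tiles with 10 to 29 CpGs had 36.5% ± 0.280 (n = 2) after 0.2 µM, 52.9% ± 0.849 (n = 3) after 2 µM and 72.0% ± 0.125 (n = 2) after 10 µM. The 1755 tiles with 30 or more CpGs had 54.5% ± 0.115, 55.3% ± 0.355 and 71.7% ± 0.250 at the same doses. The sparse tiles were thus the lowest of the 3 classes at each dose, by 21.7 points against the densest class at 0.2 µM, where the libraries within a class lay within 0.404 points of each other. Within the sparse tiles the level did not follow the number of CpGs throughout. The 22 tiles with 1 CpG had the highest levels, 38.7% ± 2.53 (n = 2) at 0.2 µM and 72.0% ± 0.421 at 10 µM. Tiles with 2 CpGs (409 tiles) had 29.4% ± 0.555 at 0.2 µM and 62.5% ± 0.433 at 10 µM, and tiles with 9 (1556 tiles) had 33.8% ± 0.0516 and 69.9% ± 0.236, while tiles with 6, 7 and 8 CpGs had 33.5, 33.5 and 33.3% at 0.2 µM. Sparse tiles that started lower also ended lower: the 9284 autosomal sparse tiles at 20 to 80% in DMSO had 57.8% in DMSO, 20.2% at the lowest dose, 35.2% at the middle dose and 47.4% at the highest. The 3953 sparse tiles under 20% had 4.86, 2.03, 4.37 and 5.53%.

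The tile levels formed a single broad peak in each group. At 0.2 µM the tile means had a median of 31.0%, with 5% of tiles below 14.8% and 5% above 57.1%. At 2 µM the median was 48.1%, with the same limits at 33.7 and 66.5%, and at 10 µM it was 67.4%, with limits at 45.3 and 89.4%. In single libraries, 0.151% ± 0.0260 (n = 2) of the tiles were at 90% or above at 0.2 µM. The shares were 0.802% ± 0.198 (n = 3) at 2 µM and 9.45% ± 2.57 (n = 2) at 10 µM, against 66.7% ± 1.34 (n = 2) in DMSO. Sampling widens these distributions, since the median tile had 18 to 44 reads in a library. The group means lay in the order 0.2, 2, 10 µM in 10814 tiles (79.6%). All 7 treated libraries lay below both DMSO libraries in 10628 (78.2%), a share that the choice on the DMSO level raises. Neither share was counted over all tiles, so neither is read as a trait of this set. Read depth moved a little with the level at 0.2 µM: in 4 classes of total reads, from few to many, the tiles had 31.5% ± 0.706 (n = 2), 31.9, 32.7 and 34.9% ± 0.194, and at 10 µM they had 68.0, 67.4, 67.5 and 66.6%. The part of depth in the other patterns was not tested.

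**Figure D2:**
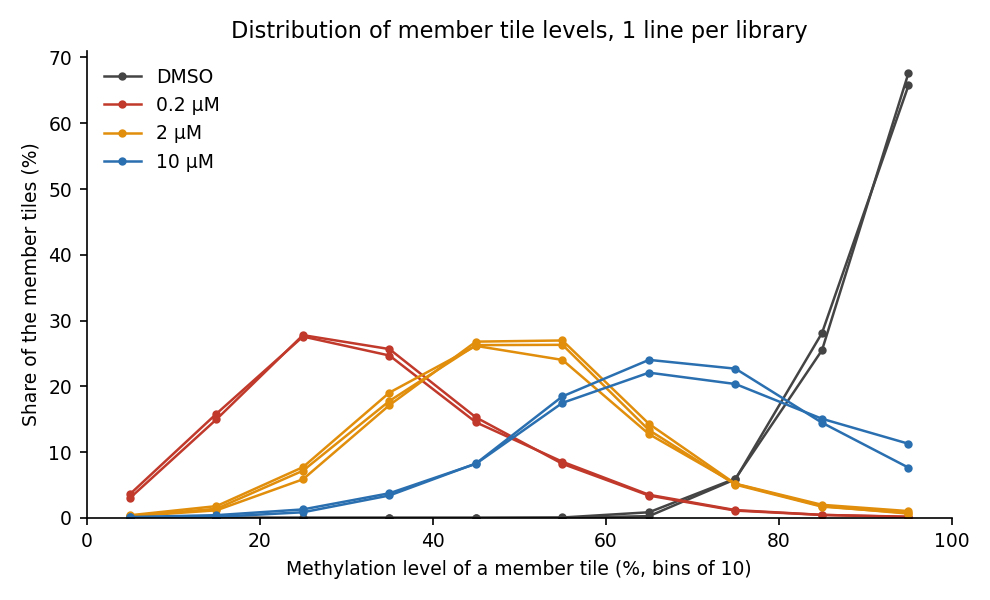
Share of the 13589 tiles (%, y axis) in each bin of 10 points of methylation level (x axis), with 1 line per library. Each group has a single peak, and the peak moves from high in DMSO to low at 0.2 µM, with 2 µM and 10 µM between.

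Tile by tile, most of the tested differences between doses went up with the dose. At 10 µM against 0.2 µM, 8318 tiles (61.2%) were higher at an adjusted p under 0.05, where 40.1% of all 66788 tiles were called higher. In the same comparison 14 were lower, with 0.0779% of all tiles called lower. The median difference was 35.4 points in the sparse tiles and 18.2 points over all tiles tested. At 2 µM against 0.2 µM, 1787 tiles (13.2%) were higher (9.38% of all tiles) and 18 were lower (0.359% of all tiles), with median differences of 16.5 and 6.79 points. At 10 µM against 2 µM, 1359 tiles (10.0%) were higher (7.04% of all tiles) and 0 were lower (0.0195% of all tiles), with median differences of 18.8 and 8.75 points. For that count of 0 by the quasi-binomial test, 12 tiles were lower at an unadjusted p under 0.05, and limma on the tile levels called 1. All tiles include many that start low in DMSO, so the excess over them is not read as a trait of sparse tiles. Of the methylated tiles with 10 to 29 CpGs, 70.1% were called higher at 10 µM against 0.2 µM. Their shares were 22.5% at 2 µM against 0.2 µM and 17.8% at 10 µM against 2 µM. With 30 or more CpGs the shares were 40.4, 11.5 and 36.9%, in the same order. The 3 comparisons share libraries and are not independent of each other.

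These counts depend on single libraries and on how the spread is estimated. At 2 µM against 0.2 µM the count of higher tiles was 10 without 0.2 µM replicate 1 and 8 without replicate 2, 1029 and 1028 without DMSO replicate 1 and 2, and 1149 without 2 µM replicate 3. At 10 µM against 2 µM it was 433 and 357 without 10 µM replicate 1 and 2, and 645 and 660 without DMSO replicate 1 and 2. At 10 µM against 0.2 µM it was 5461 without 0.2 µM replicate 2. When the typical spread was estimated over all tiles in place of tiles at 10 to 90%, the counts of higher tiles fell to 0 for both comparisons with 2 µM and to 5028 at 10 µM against 0.2 µM.

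As a description, since the rule used this contrast, 13364 tiles (98.3%) were lower at 0.2 µM than in DMSO (62.7% of all tiles), 12733 (93.7%) were lower at 2 µM (48.8% of all tiles) and 4155 (30.6%) were lower at 10 µM (13.2% of all tiles). By the same test 0 were higher at any dose, where 0.0359, 0.114 and 0.112% of all tiles were called higher. Nothing is read from these shares: the tiles were chosen for a high DMSO level, and all tiles include many that start too low to be called lower. The count at 10 µM was 12 without DMSO replicate 1, 102 without DMSO replicate 2, 2544 without 10 µM replicate 1, and 0 with the typical spread estimated over all tiles.

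Over the whole set, the tiles inside genes were lower than those outside at 0.2 µM and slightly higher at 10 µM. At 0.2 µM the 9607 tiles inside genes had 31.7% ± 0.292 (n = 2) and the 3982 outside had 35.5% ± 0.269, a difference of -3.87 ± 0.0235 points. At 10 µM they had 67.9% ± 0.419 and 66.2% ± 0.189, a difference of 1.62 ± 0.230 points, which was 0.944 ± 0.343 in the 3785 tiles with 20 or more reads in every library. At 2 µM both had 48.8%, and the difference of -0.0596 ± 0.0655 points (n = 3) was smaller than its spread, with 1 of 3 libraries above 0. In DMSO the inside tiles were higher by 1.45 ± 0.176 points. The difference at 10 µM was thus near the one already present in DMSO. From DMSO to 10 µM the mean changed by -24.3 points inside genes and -24.5 points outside. Inside genes 65.0% of the tiles were called higher at 10 µM than at 0.2 µM, and outside genes 52.2% were. Over all 66788 tiles the share was 40.1%, and it was not split there by gene overlap. Methylated tiles with 10 to 29 CpGs showed a larger difference at 0.2 µM, -8.54 ± 0.0460 points, and also at 10 µM, 2.61 ± 0.165. Those with 30 or more CpGs had 0.932 ± 1.13 points at 0.2 µM, within the spread of the 2 libraries.

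The number of genes nearby, which the rule did not use, went with the same pattern. The tiles were put into classes by the number of protein-coding genes with a midpoint within 500 kb of the tile centre, classes that were chosen after the values were seen. At 0.2 µM the mean level was lower in each class with more genes, from 39.0% ± 0.701 (n = 2) in the 1190 tiles with 0 to 2 genes, through 35.1, 33.8, 31.6 and 29.6%, to 29.1% ± 0.443 in the 737 tiles with 41 or more. At 10 µM it was higher with more genes, from 64.4% ± 0.354 through 64.9, 66.1, 67.8 and 70.6% to 71.6% ± 0.409. At 2 µM the 6 classes lay between 47.8 and 50.5%. The gene-rich class minus the gene-poor class was -9.90 ± 1.14 points at 0.2 µM, 1.43 ± 0.0202 at 2 µM, 7.25 ± 0.763 at 10 µM and 2.87 ± 0.0588 in DMSO. Neighbouring classes at the gene-rich end, 29.6 and 29.1% at 0.2 µM, differed by about the spread between libraries. Of the tiles with 41 or more genes nearby, 77.5% were called higher at 10 µM than at 0.2 µM, against 42.3% of those with 0 to 2. The share over all 66788 tiles was 40.1%, not split there by gene number. The classes were alike in median reads over all libraries, 297.5 to 326, and in the mean number of listed CpGs, 5.56 to 5.99, while the share inside genes went from 41.7 to 86.6%.

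The pattern was present both inside and outside genes. Inside genes the level at 0.2 µM went from 37.4% ± 0.693 (496 tiles) at 0 to 2 genes to 28.5% ± 0.326 (638 tiles) at 41 or more. Outside genes it went from 40.2% ± 0.707 (694 tiles) to 33.4% ± 1.2, with only 99 tiles in the last class, after 31.7% in the class before it. Within the gene-poor class the tiles inside and outside genes had 64.2% ± 1.09 and 64.4% ± 0.170 at 10 µM, closer than the spread. In the class with 3 to 5 genes nearby the inside tiles were lower at 10 µM, 64.6% ± 0.343 against 65.3% ± 0.137, opposite to the difference over the whole set. Methylated tiles with more CpGs had larger gene-rich minus gene-poor differences at 0.2 µM, -17.3 ± 0.201 points with 10 to 29 CpGs and -21.3 ± 0.637 with 30 or more. At 10 µM these sets had 6.59 ± 0.402 and 6.81 ± 0.209 points, near the 7.25 of the sparse tiles.

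**Figure D3:**
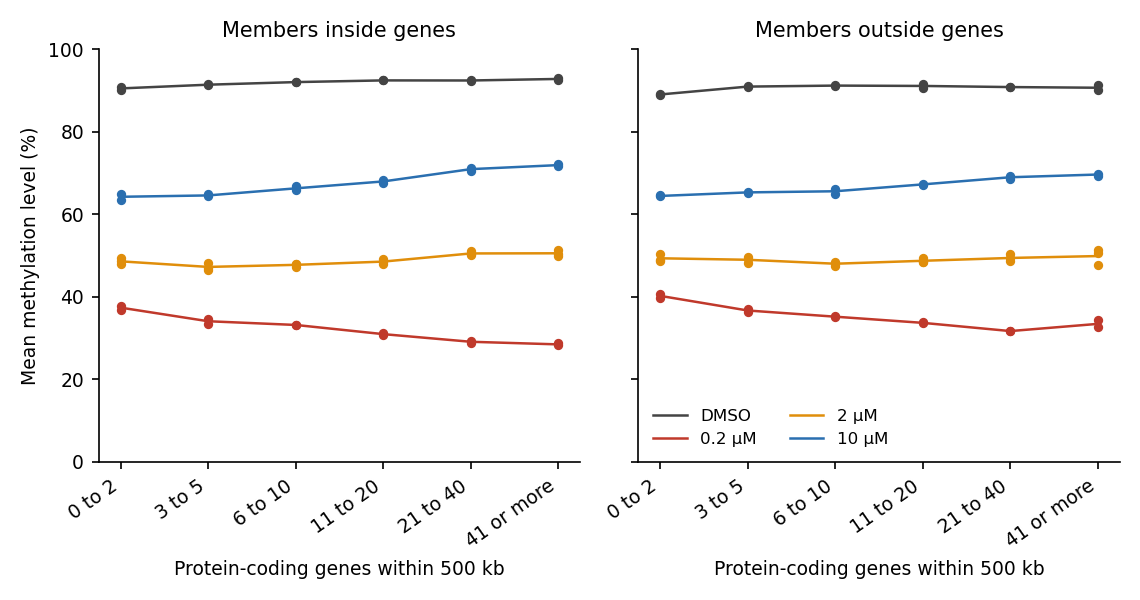
Mean methylation level (%, y axis) of the sparse methylated tiles inside genes (left) and outside genes (right), by the number of protein-coding genes within 500 kb (x axis), with 1 point per library and a line through the group means. The 0.2 µM line goes down with gene number, but outside genes it turns up in the last class. The 10 µM line goes up, and the 2 µM and DMSO lines are nearly flat.

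Distance from the tile centre to a start and the state of the neighbours were described in the same way, again in classes chosen after the values were seen. The 1761 tiles with a start 1 to 5 kb away had the lowest level at 0.2 µM, 30.3% ± 0.324 (n = 2), and the 1508 tiles 100 kb or more away had the highest, 37.2% ± 0.0720. The 491 tiles with a start within 1 kb did not continue that order and had 33.4% ± 0.133. Tiles with an unmethylated neighbour, a covered tile under 20% in DMSO within 2 kb, had 27.1% ± 0.425 at 0.2 µM (610 tiles), against 32.6% ± 0.306 in the 2536 tiles with covered neighbours but none of them under 20%. At 10 µM these had 68.5% ± 0.491 and 69.0% ± 0.763, which did not differ beyond the spread.

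The spread between replicate libraries was set against binomial sampling. The squared difference in tile level between a pair of replicates was divided by its binomial variance, which gives 1 where every CpG read is an independent draw. Since a fragment is counted at each CpG it spans, the sampling of fragments alone can give more than 1 in partly methylated tiles. Over the 13589 tiles this ratio was 1.12 in DMSO, 1.84 at 0.2 µM, 2.43 to 2.51 over the 3 pairs at 2 µM, and 2.42 at 10 µM. For single CpGs with 5 or more reads in both libraries it was 1.14 in DMSO, 1.11 at 0.2 µM, 1.11 to 1.12 at 2 µM and 1.18 at 10 µM. At the 3 doses the tile ratios were above the ratios of single CpGs, and in DMSO they were not. How much of the tile ratios comes from fragments that span several CpGs was not tested.

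**Figure D4:**
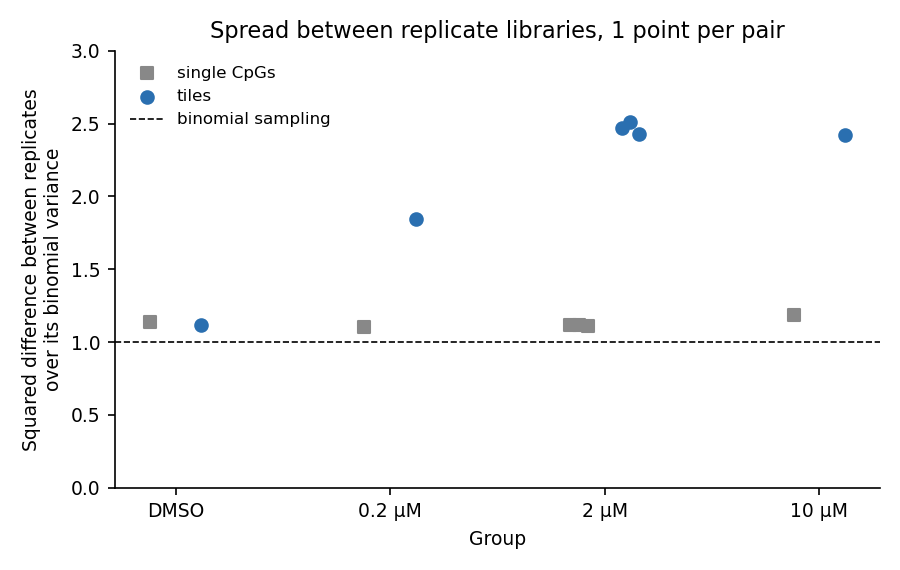
Squared difference between replicate libraries over its binomial variance (y axis), by group (x axis), with 1 point per pair of replicates, for tiles (circles) and single CpGs (squares); the dashed line at 1 marks binomial sampling. The tile ratios are near 1.12 in DMSO and between 1.84 and 2.51 at the 3 doses, and the CpG ratios lie between 1.11 and 1.18.

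Across tiles, the level at 0.2 µM was weakly related to the level at 10 µM. Over the 370 tiles with 40 or more reads in every library, Pearson's r was 0.774 between the 0.2 µM libraries, 0.452 between the 10 µM libraries and 0.485 to 0.509 between pairs of 2 µM libraries. Between 0.2 µM and 10 µM libraries it was 0.0417 to 0.0855, and between 2 µM and 10 µM libraries it was 0.342 to 0.441. Between 0.2 µM and 2 µM libraries it was 0.289 to 0.354. The spread between replicates of a dose limits how high r between doses can be. These r are descriptions across tiles, which share libraries, depth and genomic neighbourhoods.

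Single tiles are named by a rule that took the largest differences between doses among these 370 deep tiles, with an adjusted p under 0.05 and groups that did not overlap. A gene given for a tile is one whose span in the RefSeq table overlaps it; exons and introns were not told apart. The rule was counted in these 370 tiles only, with no share over all tiles. Its counts, here and for the other comparisons, serve to pick tiles and are not read as a trait of the set. At 10 µM against 0.2 µM, 240 of the 370 met the rule upward and 1 downward. The first was chr11:100790001-100791000 in Stat5b, a transcription factor switched on by cytokine receptors. It read 85.3 and 86.7% in DMSO, while the 0.2 µM libraries read 13.5 and 15.1%, the 2 µM libraries 50.0, 43.2 and 56.7% and the 10 µM libraries 82.4 and 85.0%. Its 10 µM libraries lay just below the DMSO ones and 69.4 points above 0.2 µM (adjusted p = 3.91e-05). The tile chr12:103323001-103324000 in Asb2, a substrate-binding subunit of a ubiquitin ligase, read 87.3 and 93.1% in DMSO and, by rising dose, 25.7 and 16.2%, then 48.9, 43.4 and 48.0%, then 87.1 and 90.3%. It was higher by 67.8 points at 10 µM than at 0.2 µM (adjusted p = 9.94e-06) and by 42.0 points than at 2 µM (adjusted p = 0.00434). The tile chr11:69406001-69407000 in Kdm6b, a histone H3 lysine demethylase, read 18.5 and 22.8% in the libraries of the lowest dose, 61.9, 20.3 and 57.5% in those of 2 µM, 95.1 and 80.9% in those of 10 µM and 91.9 and 90.6% in the DMSO controls. One 2 µM library of Kdm6b lay among the 0.2 µM values, and the difference between 10 µM and 0.2 µM was 67.3 points (adjusted p = 7.66e-05).

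The tile that met the rule in the other direction was chr2:8376001-8377000, which overlaps no gene and has 0 protein-coding genes within 500 kb. It read 93.5 and 87.5% in DMSO, while the 0.2 µM libraries read 64.0 and 71.6%, the 2 µM libraries 46.8, 48.7 and 43.4% and the 10 µM libraries 27.4 and 23.9%. Here the group means were lower at each higher dose, and the difference of -42.2 points between 10 µM and 0.2 µM had an adjusted p of 0.000836. Over the alternatives run, the adjusted p of this tile ranged from 0.000339 to 0.0253, and those of Stat5b, Asb2 and Kdm6b at 10 µM against 0.2 µM stayed at or under 0.0232.

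At 10 µM against 2 µM, 64 of the 370 tiles met the rule upward and 0 downward. St3gal3, a sialyltransferase, has the tile chr4:118061001-118062000, which read 94.0 and 100% in DMSO and, by rising dose, 27.5 and 12.4%, then 23.4, 25.4 and 20%, then 77.8 and 80.3%. Its 0.2 µM and 2 µM libraries overlapped, and its 10 µM libraries lay 56.1 points above 2 µM (adjusted p = 0.00180). The tile chr11:116350001-116351000 in Rnf157, a RING finger gene, read 21.6 and 34.2% in the libraries of the lowest dose, 31.0, 37.0 and 55.3% in those of 2 µM, 82.1 and 89.5% in those of 10 µM and 92.1 and 94.7% in the DMSO controls, a difference of 44.7 points from 2 µM (adjusted p = 0.00317). Each of these and Asb2 lost the call in 1 of 14 alternatives, the typical spread estimated over all tiles, where the adjusted p was 0.213.

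At 2 µM against 0.2 µM, 54 tiles met the rule upward and 1 downward. Ccdc88c, which encodes a protein that binds Dishevelled, has the tile chr12:100916001-100917000, which read 94.5 and 97.2% in DMSO, while the 0.2 µM libraries read 16.9 and 18.3%, the 2 µM libraries 97.5, 68.3 and 52.1% and the 10 µM libraries 85.7 and 74.4%. Its 2 µM libraries spanned 45.4 points, from above DMSO to below 10 µM, and the difference from 0.2 µM was 55.0 points (adjusted p = 0.00255). Mad1l1, a component of the spindle checkpoint, has the tile chr5:140298001-140299000, which read 91.9 and 84.8% in DMSO and, by rising dose, 18.7 and 20.1%, then 51.8, 85.5 and 62.3%, then 49.2 and 78.7% (47.1 points between 2 and 0.2 µM, adjusted p = 0.00361). Trafd1, a regulator of innate immune signalling, has the tile chr5:121373001-121374000, with 96.9 and 87.5% in DMSO, 23.7 and 10.9% at 0.2 µM, 72.1, 52.2 and 60.9% in the 2 µM group and 88.2 and 73.4% in the 10 µM group (44.4 points, adjusted p = 0.00291). In the first 2 of these the 2 µM and 10 µM libraries overlapped. The downward tile, chr13:103949001-103950000, overlaps no gene and read 40.3 and 43.4% in the libraries of the lowest dose, 18.9, 25.9 and 23.0% in those of 2 µM, 34.3 and 34.4% in those of 10 µM and 98.2 and 81.8% in the DMSO controls (-19.2 points, adjusted p = 0.0133). These 4 calls were lost in 2 to 4 of 14 alternatives, with adjusted p up to 0.165.

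**Figure D5:**
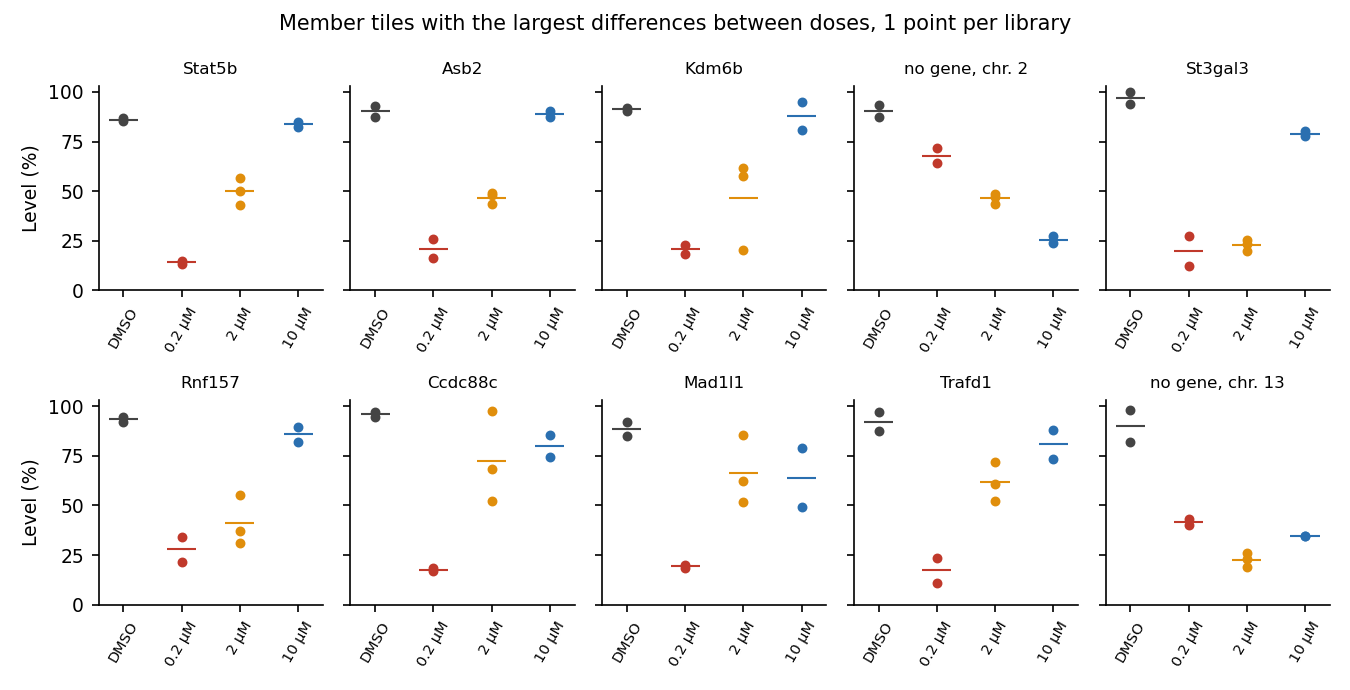
Methylation level (%, y axis) by group (x axis) of the tiles named for the largest differences between doses, with 1 point per library. Most panels go from low at 0.2 µM to high at 10 µM, and the tile on chromosome 2 goes the other way, from 67.8% at 0.2 µM to 25.6% at 10 µM.

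The ends of the range at 0.2 µM are given as a description. Among the 370 deep tiles the 5 lowest were in Tbc1d9b, a Rab GTPase-activating family member (13.3% ± 3.63, n = 2), Stat5b (14.3% ± 1.13), Pla2g6, a phospholipase that also overlaps Gm20420 there (14.4% ± 3.21), Trafd1 (17.3% ± 9.06) and Ccdc88c (17.6% ± 1.01). All 5 lay inside genes. At 10 µM they ranged from 55.2% ± 7.30 in Tbc1d9b (60.3 and 50.0%) to 83.7% ± 1.87 in Stat5b. Of the 5 highest, 4 overlapped no gene. The tile chr3:15868001-15869000 has 1 listed CpG and read 98.9 to 100% in all 9 libraries, with 88 or more reads in each. The tile chr6:131930001-131931000 read 86.7 and 90.5% in DMSO and 80 to 87.8% in the 7 treated libraries, and chr13:28198001-28199000 had 83.4% ± 3.60 at 0.2 µM and 71.4% ± 2.15 at 2 µM. The tile chr13:67995001-67996000 had 74.7% ± 8.23 after 0.2 µM, 75.9% ± 8.91 after 2 µM and 77.2% ± 0.218 after 10 µM, against 97.0% ± 1.43 in DMSO, and Gm10406 had 74.2% ± 6.84 at 0.2 µM against 85.7% ± 5.94 in DMSO. None of the 5 was called in any comparison between doses, and their choice as the highest at 0.2 µM leaves little room for a call upward. Neither that nor the gene overlap of these few tiles is read as a pattern.

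The tiles that were lower at the higher dose were few and mostly outside genes. At 2 µM against 0.2 µM 14 of the 18 overlapped no gene, and at 10 µM against 0.2 µM 8 of the 14 did, where 29.3% of all 13589 sparse methylated tiles overlap none. The lists share 4 tiles, which is 22.2% of the first and 28.6% of the second. One of them is chr12:64726001-64727000, which overlaps no gene and had group means of 89.5% in DMSO, 40.4% at the lowest dose, 16.8% at the middle dose and 10.6% at the highest. Another is in Tmem268, with 91.7, 84.6, 39.2 and 51.8%. Among the tiles lower at 10 µM than at 0.2 µM were also ones in Mstn, the growth factor that limits muscle mass (61.9% at 0.2 µM, 33.3% at 10 µM), and Blcap (73.8 and 35%). The 14 tiles had 10 to 46 reads in their shallowest library. The count of 18 was 1 and 0 without 0.2 µM replicate 1 and 2, 9 without either DMSO replicate, 28 and 29 without 10 µM replicate 1 and 2, and 0 with the typical spread estimated over all tiles. The count of 14 was 6 without 0.2 µM replicate 2 and 4 with that estimate.

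Gene lists were counted to show which kinds of genes carry such tiles. At least 1 tile overlapped 6977 genes. Of 28 B lineage genes, 12 held 20 tiles, with a mean of 92.0% ± 0.350 in DMSO, 26.2% ± 2.18 at 0.2 µM, 46.7% ± 2.70 in the 2 µM group and 69.5% ± 0.775 in the 10 µM group. Of the 20, 16 (80%) were called higher at 10 µM than at 0.2 µM, where 61.2% of all 13589 sparse methylated tiles and 40.1% of all 66788 tiles were. None of the 20 was called lower, and the median level at 0.2 µM was 22.2% against 31.0% for all 13589 tiles. Pax5, the transcription factor that fixes B cell identity, held 6 of the 20, all called higher at 10 µM, with levels at 0.2 µM from 10.4 to 21.9% and at 10 µM from 58.3 to 87.5%. The Pax5 tile chr4:44561001-44562000 had 91.7% ± 11.8 in DMSO, 17.7% ± 0.953 after 0.2 µM, 40.3% ± 8.0 after 2 µM and 82.8% ± 8.64 after 10 µM (adjusted p = 0.000289). Ebf1, another factor of early B cells, held a tile at 24.1% ± 13.1 at 0.2 µM and 88.9% ± 15.7 at 10 µM (adjusted p = 0.000271) and a tile at 47.4% ± 10.4 and 66.8% ± 15.9 that was not called (adjusted p = 0.197). In Ikzf3, one tile had 66.9% ± 17.4 at 0.2 µM and 44.6% ± 11.3 at 10 µM, the only one of the 20 with the lower mean at 10 µM, and it was not called (adjusted p = 0.232). All 20 had 37 or fewer reads in their shallowest library.

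Genes of other blood lineages, which are usually silent in B cells, carried tiles as well. Of 29 T cell and myeloid genes, 10 held 17 tiles, with a mean of 39.1% ± 2.40 at 0.2 µM and 69.6% ± 2.14 at 10 µM, and 10 of the 17 (58.8%) were called higher at 10 µM, near the 61.2% over the whole set. Bcl11b, a factor that fixes T cell identity, held 5, and its deepest tile, chr12:107960001-107961000, read 84.7 and 85.7% in DMSO, while the 0.2 µM libraries read 42.7 and 51.9%, the 2 µM libraries 39.6, 42.4 and 34.0% and the 10 µM libraries 66.7 and 74.2%. Its 2 µM libraries were all below the 0.2 µM ones, a difference of -8.57 points that was not called (adjusted p = 0.555). Zap70, a kinase of T cell receptor signalling, held 3, 2 of them above 60% at 0.2 µM (66.7 and 62.5%) and the other at 24.9%.

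Of 16 genes that write, read or remove DNA methylation, 9 held 20 tiles, at 26.4% ± 0.763 at 0.2 µM and 67.4% ± 1.39 at 10 µM, with 16 (80%) called higher, against 61.2% over the whole set. Dnmt3a, a de novo methyltransferase, held 6, at 23.8 to 39.6% at 0.2 µM, and 4 of the 6 were called. Dnmt1, the maintenance enzyme and target of the drug, held 2, at 22.9% ± 0.589 and 25.9% ± 0.137 at 0.2 µM and 66.1% ± 3.49 and 54.1% ± 24.5 at 10 µM. Of 21 cell cycle and growth control genes, 8 held 17 tiles, at 27.7% ± 0.707 at 0.2 µM and 76.2% ± 0.834 at 10 µM. Of the 17, 16 (94.1%) were called higher, against 61.2% over the whole set and 40.1% of all 66788 tiles. Several of the 17 lie in Rptor alone, so the share rests on few genes. The Cdk6 tile, in a gene for a cyclin-dependent kinase, went from 21.5% ± 3.50 at 0.2 µM to 91.8% ± 1.19 at 10 µM (adjusted p = 0.000127), and the deepest tile, in the growth kinase Mtor, had 35.6% ± 3.14 at the lowest dose, 68.9% ± 10.9 at the middle dose and 71.1% ± 19.7 at the highest.

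Long neuronal genes had the smallest share of calls among the 7 lists. Of 30 listed, 25 held 105 tiles, with 37.0% ± 0.506 at 0.2 µM, 46.4% ± 1.18 in the 2 µM group and 63.9% ± 0.471 in the 10 µM group, and 48 of the 105 (45.7%) were called higher at 10 µM than at 0.2 µM, below the 61.2% over all 13589 tiles. The deepest, in the postsynaptic scaffold gene Dlgap2, read 38.6 and 32.7% at 0.2 µM and 73.1 and 71.4% at 10 µM. Genes with symbols that start with Zfp held 121 tiles in 74 genes, with 73 of 121 (60.3%) called higher, and 15 chemosensory receptor genes held 15 tiles, with 8 (53.3%) called. The deepest Zfp tile, in Zfp978, read 50.0 and 83.8% in the 10 µM libraries and 38.6 and 42.5% in the 0.2 µM libraries. Every list tile overlaps a gene, and 65.0% of all sparse methylated tiles inside genes were called higher at 10 µM than at 0.2 µM. No test compares these lists with the rest of the tiles or with each other.

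The labelled cell type was checked on the pooled DMSO level of CpGs within 1 kb of the starts of marker genes. Pax5 read 4.76% over 42 reads and Ebf1 0.471% over 1911 reads. The T cell genes Cd3e, Cd3g and Lck read 100% over 4 reads, 88.9% over 9 and 100% over 3, and Cd79a, Blnk, Cd3d and Mpo had 0 reads there, so the check rests on few markers. Total reads per library were 8590777 to 16495423, lowest in 10 µM replicate 2 and DMSO replicate 2, and the median tile of the set had 308 reads over all libraries. At the 80% limit, 190 tiles had a pooled DMSO level of exactly 80% and means of 28.7% at 0.2 µM and 62.5% at 10 µM, and the 20 just outside, at 79.7 to 79.9%, had 32.0 and 67.6%.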

How the data were processed

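Bisulfite sequencing tables of 9 libraries were used. Each line is a CpG with methylated over total reads as text and a score; the deposited score is the floor of 1000 times that share in every line, and the deposited other column of read pairs was the one analysed. Coordinates are mm10 per the submitters' processing notes; for aligner, filters and strand merging, the sources used here give nothing. Libraries were amplified for 11 PCR cycles per the labels, with no molecular identifiers stated. All 140895 listed positions that fall in RefSeq GRCm38.p6 promoter sequences of covered tiles sit on a CG. Lines of odd width (1 or 2 per library) and repeated positions (18 to 68) were dropped.

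Reads were summed over tiles of 1000 bases. Per tile, a quasi-binomial model with 1 level per group was fitted to all 9 libraries over 66788 tiles. Reads were scaled to an effective size by an intraclass correlation in 5 coverage classes (0.00894 to 0.0325), the dispersion was moderated with limma 3.58.1 (R 4.3.3) along coverage and kept at 1 or above, and p-values were adjusted by Benjamini-Hochberg over all tiles at a threshold of 0.05. The model was tested on simulated data. With the prior of the dispersion taken from all tiles, as the plan was first read, the model called none of the changes put into the simulated data. Far fewer tiles were changed there than were called in the real data at 10 µM against 0.2 µM. The simulation therefore cannot tell which prior suits the real data. The prior was then taken from tiles at 10 to 90%; this change was made with the calls of the real tiles in view, and both sets of counts are given. Means over tiles have an SD over libraries and no test.

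The members and lists were chosen with earlier results of these data known. Named tiles had 40 or more reads in every library. For each comparison between doses and direction, up to 3 with the largest difference, an adjusted p under the threshold and groups that did not overlap were named. The 5 lowest and 5 highest at 0.2 µM and the deepest tile in each gene list were also named. The sequences, single genes within lists, classes of gene number and distance, and the spread ratio were chosen after values were seen. Alternatives were 20 reads, an unweighted mean over CpGs, 5 CpGs, a 90% limit, unscaled reads, limma on levels, a replicate block, and leaving out each library. Python 3.11.15, numpy 2.4.6 and pandas 2.3.3 were used. Chromosome X tiles entered the fit and no member.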

Additional observations from a re-analysis of the deposited data

How the results depend on the processing

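The order 0.2, 2, 10 µM, DMSO of the mean levels held under every alternative run. With 20 reads per tile (3785 tiles), the means were 91.4% in DMSO, 34.6% at 0.2 µM and 66.7% at 10 µM. With at most 5 CpGs they were 92.0, 32.0, 47.2 and 65.3% from DMSO to 10 µM, and with a DMSO limit of 90% they were 95.2, 33.9, 49.7 and 68.6%. An unweighted mean over CpGs gave 91.5% in DMSO. Leaving out each library in turn gave 91.7 to 92.4% in DMSO, 32.4 to 33.0% at 0.2 µM, 48.4 to 49.0% at 2 µM and 66.8 to 67.6% at 10 µM.

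The inside minus outside difference at 0.2 µM was -4.77 points with 20 reads, -3.01 with 5 CpGs, -4.53 with the 90% limit, and -3.89 to -3.34 with a library left out. At 10 µM it was 0.944 points with 20 reads, 1.13 with 5 CpGs, and 1.46 to 1.85 with a library left out. At 2 µM, where it was smaller than its spread, it was -0.361, -0.429 and -0.147 points in the first 3 settings, turned to 0.0660 with the unweighted mean and to 0.148 without DMSO replicate 1, and spanned -0.115 to 0.148 with a library left out. The cause was not tested.

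Counts of called tiles moved most. With 20 reads, fewer tiles were tested, and the counts were 465 higher and 6 lower at 2 against 0.2 µM, 516 higher at 10 against 2 µM, 2361 higher and 4 lower at 10 against 0.2 µM, and 3739, 3682 and 1666 lower than DMSO at 0.2, 2 and 10 µM. With unscaled reads, 3378 were higher and 44 lower at 2 against 0.2 µM. limma on tile levels gave 1 lower at 10 against 2 µM and 2349 lower at 10 µM than in DMSO. With the prior spread from all tiles, a setting added after seeing the data, 0 were higher and 0 lower at 2 against 0.2 µM, 0 higher at 10 against 2 µM, 5028 higher and 4 lower at 10 against 0.2 µM, and 0 lower at 10 µM than in DMSO. With a library left out, higher and lower counts were 8 to 2290 and 0 to 29 at 2 against 0.2 µM, 357 to 1110 and 0 to 1 at 10 against 2 µM, and 5461 to 8627 and 6 to 21 at 10 against 0.2 µM. Counts lower than DMSO were then 12850 to 13383, 9213 to 12830 and 12 to 4675 at 0.2, 2 and 10 µM. The cause was not tested.

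Deviations from the group mean of libraries with the same replicate number correlated at -0.0192 to 0.00520 (12 pairs), and those with different numbers at -0.0248 to 0.0248. In a group of 2 libraries the 2 deviations are equal and opposite, so the 2 ranges largely mirror each other. They cannot tell whether libraries with the same number belong together. With a replicate block, and 2 µM replicate 3 left out, 1165 tiles were higher at 2 against 0.2 µM, and the other counts stayed within 1.5 times. Depth limits single tiles: 370 of the 13589 had 40 or more reads in every library.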

Other observations

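The chromosomes differed by a few points in the sparse methylated tiles. Chromosome 11 (1222 tiles) had the lowest mean at 0.2 µM, 29.7% ± 0.0201 (SD, n = 2), and the highest at 10 µM, 69.3% ± 0.144 (n = 2). Chromosome 1 (826 tiles) had the highest at 0.2 µM, 35.8% ± 0.359, with 66.2% ± 0.649 at 10 µM, and chromosome 13 (593 tiles) had the lowest at 10 µM, 64.8% ± 0.275. The gene with the most tiles was Slc39a11, a zinc transporter gene, with 27, followed by Pitpnc1, a phosphatidylinositol transfer protein gene, with 15 and Cdh13, a cadherin gene, with 14. One of the Slc39a11 tiles, chr11:113357001-113358000, was among the 14 that were lower at 10 µM than at 0.2 µM, with 63.3 and 15.9%. These items were chosen after their values were seen.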
